A study of Homo sapiens with 6 samples.

Results

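Glycolysis and the response to low oxygen were followed through 38 genes in ADI-PEG20 resistant and parental Ju77 cells. The genes were chosen by name: 24 enzymes, carriers and regulators of glycolysis, and 14 other genes that hypoxia is known to induce. Of the 38 genes, 35 had at least 1 annotated probe, with 63 probes in all, and 32 were detected well enough to be tested, out of 10672 genes tested on the arrays. The 24 glycolytic genes gave 21 tested genes and the 14 hypoxia targets gave 11. SLC16A1, SLC16A3 and CA9 had no annotated probe and were not analysed here, and PDK1, EGLN3 and MXI1 had no probe detected on all arrays of a group.

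Ju77 is a human malignant mesothelioma cell line, and ADI-PEG20 is arginine deiminase coupled to polyethylene glycol, which depletes arginine outside the cells. RNA from 3 samples of ADI-PEG20 resistant Ju77 cells and 3 samples of parental Ju77 cells, taken the day after plating, was hybridised to Illumina expression arrays. Because 1 resistant and 1 parental line were compared, resistance and other differences between these lines cannot be told apart. The labels do not say whether the repeats were separate cultures, so p-values cover only how much these samples vary, possibly for technical reasons, and having 3 arrays a group limits precision. Between 19024 and 20113 of 47225 probes were detected on an array, and resistant arrays averaged an intensity of 431 ± 20.1 over all probes, against 480 ± 16.1 for parental arrays (SD, n = 3 each). Mesothelial markers were checked with 11 genes, of which 7 passed detection on every resistant array and 8 on every parental array, while ITLN1 and KRT5 were detected on none. In resistant cells 1 marker was higher and 4 were lower at a limma adjusted p under 0.05. The summed normalised intensity of the markers was 11100 to 11900 on the resistant arrays and 12000 to 14200 on the parental arrays.

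Glycolysis turns glucose into pyruvate in a chain of cytosolic steps, most of which can be run by more than 1 isozyme, and lactate dehydrogenase then turns pyruvate into lactate. Many of these enzymes are induced when oxygen is short. The oxygen-sensing prolyl hydroxylases (EGLN proteins) then no longer mark the subunit HIF-1 alpha for destruction through the VHL ubiquitin ligase, and the HIF dimer binds a short core sequence, ACGTG or GCGTG, called the hypoxia response element. In tumour cells the same programme can run in oxygen, as aerobic glycolysis.

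The members moved in both directions. Of the 32 tested members 8 had higher and 7 lower signal in resistant cells at a limma adjusted p under 0.05 over all genes, while over all genes 22.4% were higher, 23.0% lower and 45.4% either, so these shares lie near the background. Among the 21 glycolytic genes 3 were higher (PFKL, ALDOA and PKM) and 5 lower (HK1, HK2, PFKP, ENO2 and SLC2A3), with a median log2 difference of -0.09, where the median over all genes was -0.00. Among the 11 hypoxia targets 5 were higher (NDRG1, LOX, KDM3A, P4HA1 and P4HA2) and 2 lower (ADM and BNIP3), with a median log2 difference of 0.15. With median scaling, which sets all arrays to the same median in place of quantile normalisation, the median of all genes shifted to -0.15, 1466 genes were higher and 3774 lower against 2387 and 2456, and the glycolytic genes split into 2 higher and 9 lower. The median relative to all genes was then -0.08 for the glycolytic genes, against -0.09 with quantile normalisation, and 0.19 for the hypoxia targets, against 0.16. All values below are normalised log2 intensities, and all differences are resistant minus parental.

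**Figure D1:**
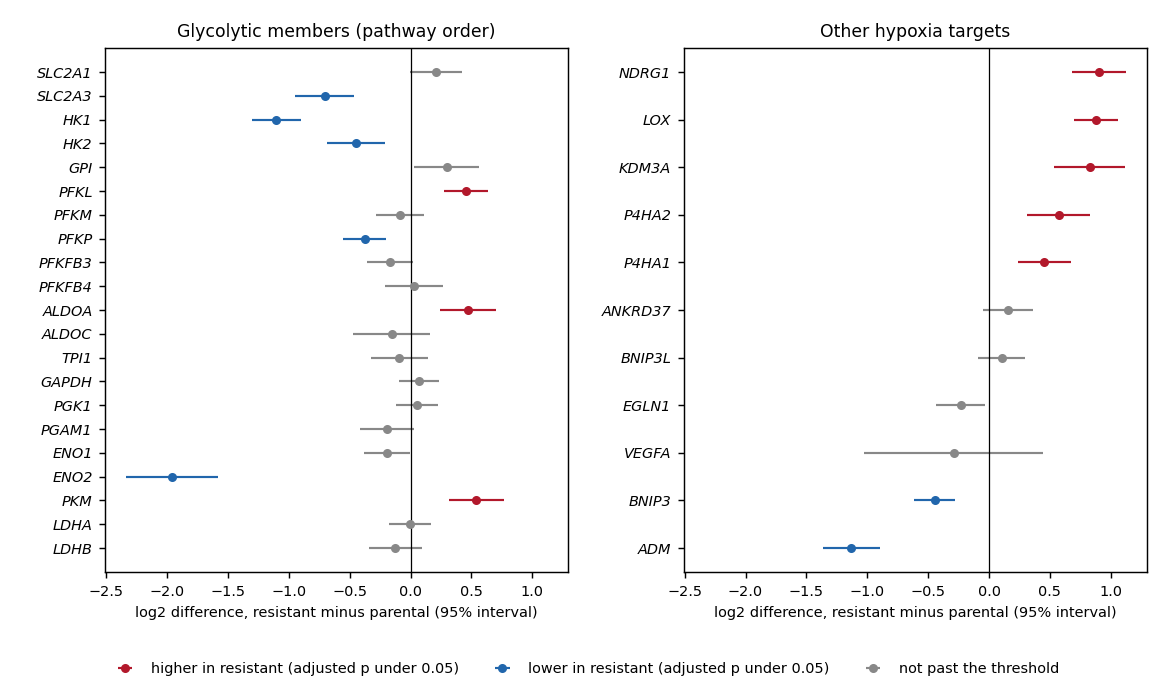
Log2 difference, resistant minus parental, of each tested member (points, horizontal axis) with its 95% interval, for the glycolytic genes in pathway order (left) and the other hypoxia targets (right), 3 arrays per group. ENO2 at -1.96 lies farthest to the left, HK1 and ADM follow at -1.10 and -1.13, and NDRG1, LOX and KDM3A lie between 0.83 and 0.90.

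The core of the hypoxia response element stood in promoters of members that rose, that fell and that did not pass the threshold. The sequences below, which all hold it, are shown as examples from each of these classes. They are the 200 bases before a listed start of the gene, 5′ to 3′ on the gene's own strand, from RefSeq on build GRCh38.p14, with each match to ACGTG or GCGTG on either strand in capitals. Where a gene had several starts, as LOX and LDHA do, the one with the most matches was chosen. The match counts of these windows are therefore high by selection. LOX (rose) lies on the minus strand at chr5:122078260-122078459, P4HA1 (rose) on the minus strand at chr10:73096867-73097066, BNIP3 (fell) on the minus strand at chr10:131981924-131982123, ENO2 (fell) on the plus strand at chr12:6914380-6914579, and LDHA (log2 difference -0.01, not past the threshold) on the plus strand at chr11:18394363-18394562.
LOX: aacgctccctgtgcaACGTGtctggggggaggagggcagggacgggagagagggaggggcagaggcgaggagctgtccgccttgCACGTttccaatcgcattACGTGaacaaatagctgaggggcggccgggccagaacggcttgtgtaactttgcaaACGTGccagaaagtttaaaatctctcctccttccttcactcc
P4HA1: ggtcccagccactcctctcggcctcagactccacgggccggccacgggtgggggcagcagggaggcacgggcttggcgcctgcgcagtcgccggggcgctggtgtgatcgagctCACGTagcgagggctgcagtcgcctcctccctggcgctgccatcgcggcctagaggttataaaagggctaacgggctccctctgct
BNIP3: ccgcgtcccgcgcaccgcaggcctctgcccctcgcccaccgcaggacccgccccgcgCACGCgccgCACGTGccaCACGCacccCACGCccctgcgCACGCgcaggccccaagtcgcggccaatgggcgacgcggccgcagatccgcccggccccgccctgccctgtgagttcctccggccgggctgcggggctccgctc
ENO2: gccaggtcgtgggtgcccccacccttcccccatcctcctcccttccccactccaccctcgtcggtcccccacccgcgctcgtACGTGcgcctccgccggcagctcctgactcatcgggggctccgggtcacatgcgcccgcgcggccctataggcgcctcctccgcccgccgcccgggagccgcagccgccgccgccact
LDHA: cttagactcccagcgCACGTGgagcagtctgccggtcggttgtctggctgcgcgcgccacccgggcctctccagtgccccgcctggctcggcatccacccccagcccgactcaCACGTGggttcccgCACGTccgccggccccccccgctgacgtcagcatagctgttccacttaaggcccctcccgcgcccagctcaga

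In these windows ACGTG matched 4 times for LOX, 5 times for LDHA, 2 times for BNIP3 and 1 time each for P4HA1 and ENO2, and GCGTG matched 4 times for BNIP3 and for no other. The palindrome CACGTG, the E-box bound by MYC and related factors, holds ACGTG on both strands and so counts as 2 matches. It stands 2 times in the LDHA window and 1 time in that of BNIP3. Over windows of 250 bases before to 50 after a gene start, 33 of the 38 members had 64 windows. Of these, 42.2% held ACGTG, against 21.4% of all 35116 windows, and 42.2% held GCGTG, against 36.5%. Either core stood in 68.8% of the members' windows, against 48.4% of all windows. Counted by gene, among those with a window, either core stood in at least 1 window of 6 of 7 members that rose, 6 of 6 that fell and 14 of 15 that did not pass the threshold. Genes with several windows have more places for a match, and no share by gene over all genes was taken. These counts by gene therefore cannot be set against the 48.4% of windows. P4HA2, which rose, and PGAM1, which did not pass it, had no match. The called members NDRG1 and SLC2A3 had no promoter window in the source and were not searched. A match is a string of letters in these windows and not a bound site.

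Glucose enters through the carriers of the SLC2A family, and of those listed the one with the higher affinity fell. SLC2A3 (GLUT3) had 9.10, 9.28 and 9.44 on the resistant arrays, against 10.05, 9.89 and 9.998 on the parental arrays, a log2 difference of -0.71 (SE 0.10, 1.63-fold, limma adjusted p = 0.00105). SLC2A1 (GLUT1), the widespread basal carrier, had 9.57, 9.84 and 9.68 on the resistant arrays and 9.57, 9.46 and 9.44 on the parental arrays. All resistant arrays lay above the highest parental array for SLC2A1, the lowest by less than the printed precision, and its log2 difference of 0.21 (95% interval -0.01 to 0.42) did not pass the threshold (adjusted p = 0.103). It passed in 3 of 18 alternatives and was 0.0023 under median scaling.

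Hexokinases trap glucose as glucose 6-phosphate, and both measured forms were lower. HK1, the form expressed in most tissues, had 10.32, 10.37 and 10.50 on the resistant arrays and 11.52, 11.41 and 11.58 on the parental arrays. The groups were well apart, with a log2 difference of -1.10 (SE 0.09, 2.15-fold, adjusted p = 4.88e-05). A second HK1 probe was detected on all 3 parental arrays and on no resistant array, at least 1.77-fold lower. HK2, the insulin- and hypoxia-induced form, had 7.36, 7.27 and 7.52 on the resistant arrays and 7.99, 7.76 and 7.75 on the parental arrays, a log2 difference of -0.45 (SE 0.10, adjusted p = 0.00854), or -0.29 without background correction. Its other probe gave -0.06 (adjusted p = 0.741 over all 17843 kept probes), and with the mean of both probes the HK2 call was lost (-0.26, adjusted p = 0.0621). HK1 lies on chromosome 10 among genes that were also often lower. Its 20 nearest measured neighbours had a median log2 difference of -0.36, and 10 of them were called lower, against 23.0% of all genes. The part of that stretch in the HK1 value was not tested. P4HA1, also on chromosome 10, likewise had 10 of its 20 neighbours called lower (median -0.21), but was itself higher.

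Phosphofructokinase commits the sugar to glycolysis, and its subunits diverged. PFKL, the liver-type subunit, had 8.60, 8.65 and 8.54 on the resistant arrays and 8.23, 8.09 and 8.11 on the parental arrays. The groups did not overlap, with a log2 difference of 0.45 for PFKL (SE 0.08, 1.37-fold, adjusted p = 0.00241), or by 0.28 under median scaling. PFKP, the platelet-type subunit, had 10.57, 10.50 and 10.58 on the resistant arrays and 11.00, 10.90 and 10.88 on the parental arrays, a fall of 1.30-fold (log2 difference -0.38, SE 0.08, adjusted p = 0.00500). PFKM, the muscle-type subunit, overlapped between the groups, with 8.50, 8.68 and 8.70 on the resistant arrays and 8.70, 8.69 and 8.76 on the parental arrays (log2 difference -0.09, 95% interval -0.28 to 0.11), and was called lower under median scaling (-0.27, adjusted p = 0.0444). The isomerase GPI, which supplies their substrate, gave a log2 difference of 0.30 (adjusted p = 0.0678), which passed the threshold in 5 of 18 alternatives (0.26 without background correction, adjusted p = 0.0141) and was 0.09 under median scaling. PFKFB3 and PFKFB4, which make the allosteric activator fructose 2,6-bisphosphate, gave -0.17 (adjusted p = 0.126) and 0.03 (adjusted p = 0.854). PFKFB3 was called lower under median scaling (-0.35, adjusted p = 0.0172) and with the mean of its kept probes (-0.31, adjusted p = 0.0182). The dimmer probe of PFKFB3 gave -0.45 and passed the threshold over all probes (adjusted p = 0.0164), where 20.2% of kept probes were lower and 18.7% higher.

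Aldolase splits the 6-carbon sugar, and ALDOA, the main form outside liver and brain, was higher. It had 12.14, 12.19 and 12.34 on the resistant arrays and 11.76, 11.61 and 11.90 on the parental arrays, a log2 difference of 0.47 (SE 0.10, 1.38-fold, adjusted p = 0.00633). This call was lost under median scaling (0.29, adjusted p = 0.0605) and with the mean of its 3 kept probes (0.22, adjusted p = 0.0834), of which the brighter pair were called higher and the dimmest gave -0.18. ALDOC, the brain-type form, had 5.21, 5.17 and 5.18 on the resistant arrays and 5.11, 5.26 and 5.67 on the parental arrays, with no separation (log2 difference -0.16, adjusted p = 0.383). These levels lay not far above the lowest detected signals of the arrays, 4.91 to 4.99.

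The middle steps showed small differences. TPI1, which interconverts the triose phosphates, gave a log2 difference of -0.09, GAPDH, which makes NADH, gave 0.07, and PGK1, which makes the first ATP of the pathway, gave 0.05. Their 95% intervals ran from -0.33 to 0.14, from -0.09 to 0.24 and from -0.12 to 0.23. PGAM1, the mutase that follows, gave -0.19 (adjusted p = 0.141), but was called lower in 6 of 18 alternatives. It gave -0.18 without background correction (adjusted p = 0.0494) and -0.40 under median scaling (adjusted p = 0.0164). Its dimmer probe gave -0.31 (adjusted p = 0.0345 over all probes). GAPDH is often used as a reference gene, and its 3 probes gave differences from -0.14 to 0.07.

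At the enolase step, which forms phosphoenolpyruvate, the neuron-type isozyme was lower. ENO2 had 4.56, 5.20 and 4.81 on the resistant arrays, where it was detected on 1 of 3, and 6.80, 6.99 and 6.66 on the parental arrays, where it was detected on all. Its log2 difference of -1.96 (SE 0.16, 3.89-fold, adjusted p = 6.14e-05) is measured against a resistant level around the detection limit, with both undetected arrays below their lowest detected signals of 4.98 and 4.91, so its size is uncertain. The difference was -0.74 without background correction, -0.78 with the deposited log2 values and -1.22 with an offset of 50 in the correction. ENO1, the ubiquitous isozyme, had 13.31, 13.47 and 13.52 on the resistant arrays, all below the 13.61, 13.62 and 13.66 of the parental arrays, a log2 difference of -0.19 that did not pass the threshold (adjusted p = 0.0904) but did in 4 of 18 alternatives.

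Pyruvate kinase, the last step to pyruvate, was higher. PKM had 12.63, 12.34 and 12.35 on the resistant arrays and 11.86, 11.93 and 11.92 on the parental arrays, a log2 difference of 0.54 (SE 0.10, 1.45-fold, adjusted p = 0.00296). Its 3 probes gave 0.49 to 0.54 and all were called higher. The sources used here do not give the exons they cover, so the M1 and M2 splice forms were not told apart. LDHA, which makes lactate from pyruvate, gave -0.01 (95% interval -0.18 to 0.17), and LDHB, the form that favours the reverse reaction, gave -0.13 (adjusted p = 0.303). Another, much dimmer LDHA probe gave 0.34 (adjusted p = 0.0390 over all probes), where the brighter pair gave -0.01 and 0.05. PDK1, the kinase that shuts pyruvate out of mitochondria, was not detected on any array.

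**Figure D2:**
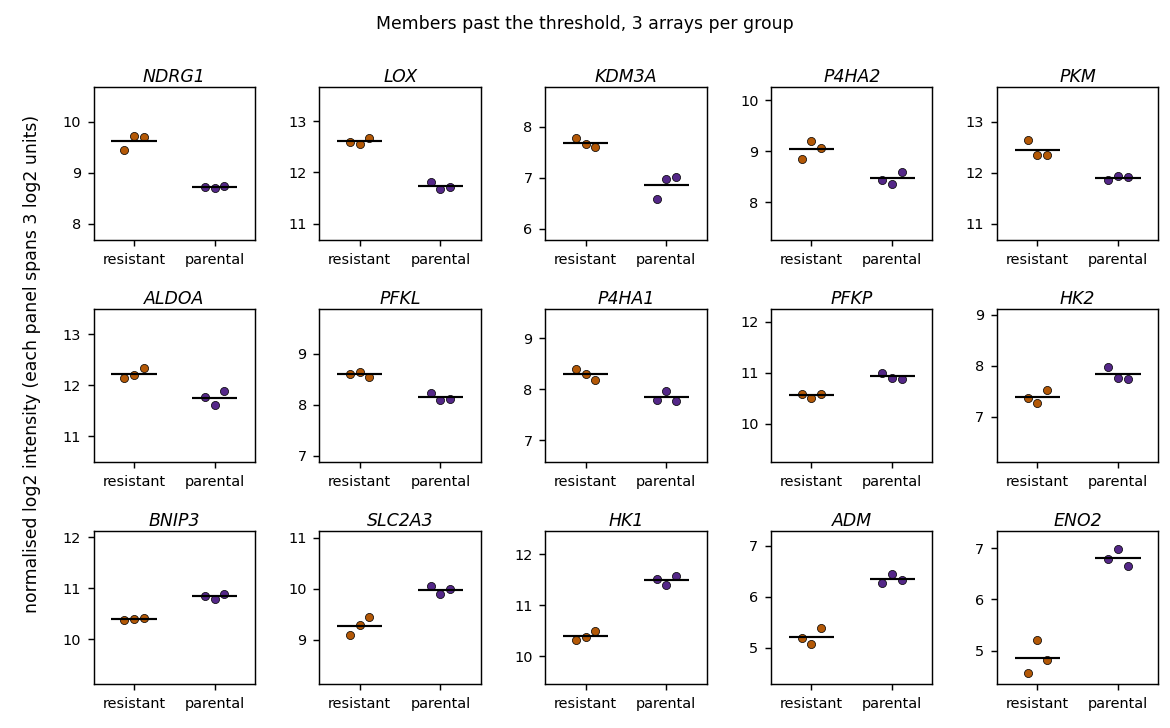
Normalised log2 intensity (vertical axis, each panel spanning 3 log2 units) of the 15 members past the threshold on the 3 resistant arrays (left in each panel) and the 3 parental arrays (right), with the group means as lines. The panels were chosen for passing the threshold, so the groups are apart in each by selection. Over all 32 tested members the groups were apart for 21, where they were apart for 56.0% of all tested genes.

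Isozyme ratios were compared within arrays, as the log2 difference between 2 members of a family. Only the change of such a ratio between the groups can be read, because probes differ in brightness for the same RNA. Of 13 pairs listed, 11 could be measured, and in 9 of them the resistant and the parental arrays did not overlap, where the levels of 56.0% of all tested genes, taken singly, did not overlap either. With 3 against 3 arrays the exact two-sided permutation test cannot go below p = 0.1, so none could pass the threshold, and the 9 pairs have p = 0.1 (adjusted p = 0.122 over the 11 pairs).

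The ratio of ENO2 to ENO1 differed by -1.76 on the log2 scale, with -8.58 ± 0.27 on the resistant and -6.81 ± 0.18 on the parental arrays (SD, n = 3 each; exact permutation p = 0.1). Without background correction this difference was -0.55, with the deposited values -0.60 and with an offset of 50 it was -1.02. Without background correction and with the deposited values it was smaller in size than the differences of SLC2A3 to SLC2A1, HK2 to HK1 and PFKP to PFKL. The carrier ratio of SLC2A3 to SLC2A1 differed by -0.91, with -0.43 ± 0.16 on the resistant and 0.49 ± 0.06 on the parental arrays (SD, n = 3 each; exact permutation p = 0.1). PFKP to PFKL differed by -0.83, with values of 1.97, 1.85 and 2.04 on the resistant arrays and 2.77, 2.81 and 2.77 on the parental arrays. PFKM to PFKL differed by -0.54 and PFKP to PFKM by -0.29, so the ratios of both other subunits to the liver type were lower on every resistant array than on any parental array. ALDOC to ALDOA differed by -0.63, or by -0.37 with the mean of the kept probes, with ALDOC near the detection limit in both groups.

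HK2 to HK1 differed by 0.65, with both hexokinases lower, with -3.01 ± 0.08 on the resistant and -3.67 ± 0.15 on the parental arrays (SD, n = 3 each; exact permutation p = 0.1). BNIP3L to BNIP3 differed by 0.55 and PFKFB4 to PFKFB3 by 0.20, the last by 0.08 without resistant replicate 2. LDHB to LDHA (-0.12, exact permutation p = 0.3) and P4HA2 to P4HA1 (0.12, exact permutation p = 0.5) overlapped between the groups. With the mean of the kept probes LDHB to LDHA differed by -0.25 and its groups did not overlap (exact permutation p = 0.1), and P4HA2 to P4HA1 ranged from 0.0073 to 0.27 over the alternatives. Under the alternatives run for the pairs, none of the 11 differences turned its sign.

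**Figure D3:**
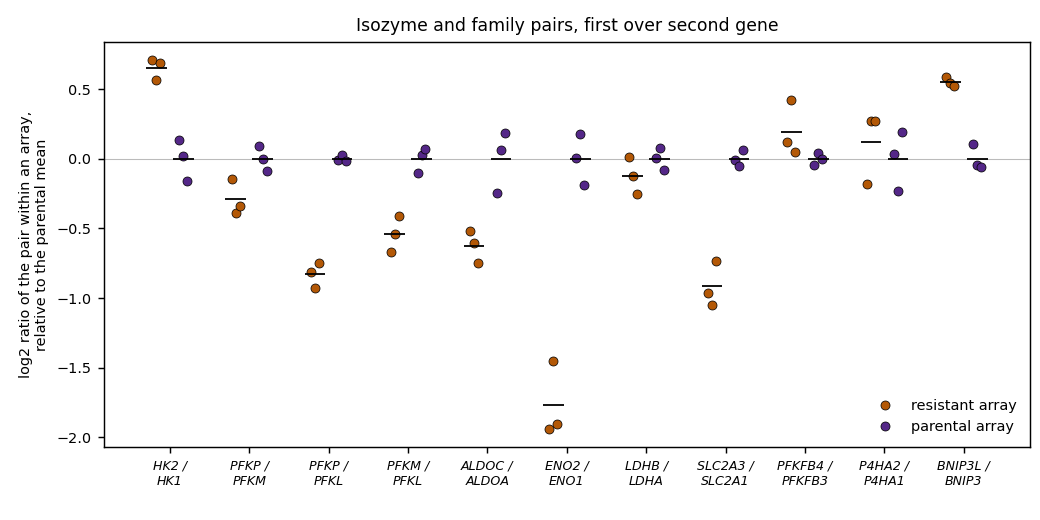
Log2 ratio of the first to the second gene within each array, relative to the parental mean of the pair (vertical axis), for the 11 measured pairs, with 3 resistant arrays (left of each pair) and 3 parental arrays (right) and their means as lines. The resistant arrays lie below the parental arrays for ENO2 to ENO1 (mean difference -1.76) and SLC2A3 to SLC2A1 (-0.91), and above them for HK2 to HK1 (0.65).

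Among the hypoxia targets, LOX, P4HA1 and P4HA2 were higher. LOX, the lysyl oxidase that cross-links collagen and elastin, had 12.59, 12.55 and 12.67 on the resistant arrays and 11.81, 11.67 and 11.72 on the parental arrays, a log2 difference of 0.88 (SE 0.08, 1.84-fold, adjusted p = 9.59e-05). P4HA1 and P4HA2, catalytic subunits of the prolyl hydroxylase that lets collagen fold, moved together. P4HA1 had 8.40, 8.30 and 8.18 on the resistant arrays and 7.78, 7.97 and 7.78 on the parental arrays (log2 difference 0.45, SE 0.09, adjusted p = 0.00574), or 0.29 under median scaling. P4HA2 had 8.84, 9.20 and 9.07 on the resistant arrays and 8.44, 8.36 and 8.59 on the parental arrays (log2 difference 0.57, SE 0.11, adjusted p = 0.00429). All 3 probes of P4HA2 were called higher, and the dimmest, at least 1.24-fold higher, was detected on no parental array. Fibroblasts make these proteins too: the summed normalised intensity of 12 fibroblast markers was 1180 to 1290 on the resistant arrays and 213 to 242 on the parental arrays, with 2 and 3 of them detected on all arrays of the group. Of these 12 markers, 2 were called higher and 1 lower, and DCN, LUM, PDGFRA, DPT, COL14A1 and SCARA5 were detected on no array. Whether fibroblast-like cells contribute to these values was not tested.

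NDRG1, a stress- and hypoxia-induced growth regulator, had 9.45, 9.73 and 9.70 on the resistant arrays and 8.73, 8.70 and 8.74 on the parental arrays. It was 1.87-fold higher (log2 difference 0.90, SE 0.09, adjusted p = 1.94e-04). KDM3A, a histone H3 lysine 9 demethylase and HIF target, had 7.77, 7.67 and 7.61 on the resistant arrays, above the 6.57, 6.98 and 7.02 of the parental arrays (log2 difference 0.83, SE 0.13, adjusted p = 0.00130), or 0.50 without background correction and 0.52 with the deposited values. ANKRD37, a small ankyrin protein with a known HIF response, gave 0.15 (adjusted p = 0.182).

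Of the genes for secreted products, ADM fell and VEGFA did not pass the threshold. ADM, the vasodilator peptide adrenomedullin, had 5.20, 5.07 and 5.39 on the resistant arrays, detected on all 3, and 6.27, 6.46 and 6.33 on the parental arrays. It was 2.19-fold lower (log2 difference -1.13, SE 0.10, adjusted p = 9.73e-05), with a log2 difference of -0.40 without background correction, -0.43 with the deposited values and -0.70 with an offset of 50. The resistant levels of ADM lay not far above the lowest detected signals of those arrays (4.98, 4.99 and 4.91), so the size is uncertain. VEGFA, the angiogenic growth factor, had 5.11, 5.75 and 5.35 on the resistant arrays and 6.48, 5.45 and 5.16 on the parental arrays. Its groups overlapped and parental replicate 1 stood far above the others: the log2 difference of -0.29 (95% interval -1.03 to 0.44, adjusted p = 0.486) became 0.10 without that array. Of the 3 VEGFA probes only this 1 was kept, and the others were detected on no array. Apart from parental replicate 1, its levels lay not far above the lowest detected signals (4.91 to 4.99 over the arrays).

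BNIP3 and BNIP3L encode related mitochondrial proteins that mark mitochondria for autophagy. BNIP3 had 10.37, 10.40 and 10.42 on the resistant arrays and 10.85, 10.79 and 10.89 on the parental arrays, a fall of 1.36-fold (log2 difference -0.45, SE 0.07, adjusted p = 0.00186). BNIP3L had 9.48, 9.46 and 9.46 on the resistant arrays and 9.48, 9.26 and 9.35 on the parental arrays, a log2 difference of 0.10 (adjusted p = 0.346) that was -0.10 under median scaling. Its second probe gave 0.36 (adjusted p = 0.127 over all probes). BNIP3L lies on chromosome 8 among genes that were mostly lower. Its 20 nearest measured neighbours had a median log2 difference of -0.67, and 15 of them were called lower, against 23.0% of all genes.

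EGLN1, the main oxygen-sensing prolyl hydroxylase, had a log2 difference of -0.23 (95% interval -0.44 to -0.03, adjusted p = 0.0602). All 3 resistant arrays, at 6.59, 6.81 and 6.79, lay below the parental arrays at 6.997, 6.90 and 6.99, but the difference passed the threshold only under median scaling among the 18 alternatives (-0.38, adjusted p = 0.00984). EGLN3, its most strongly hypoxia-induced relative, was detected on 1 resistant array and on no parental array. MXI1, a MYC antagonist and HIF target, had 1 probe detected on 2 arrays of each group, and its other 3 probes were each detected on at most 1 array.

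The HIF subunits and their regulators were measured beside the targets. Of 19 tested genes of this list 8 were higher (42.1%) and 3 lower (15.8%), against 22.4% and 23.0% of all genes, with a median log2 difference of 0.04. Under median scaling 4 were higher and 4 lower, and the median was -0.16 (over all genes 1466, 3774 and -0.15). The list median relative to all genes was then -0.0095, against 0.04 with quantile normalisation. HIF1A, the oxygen-regulated subunit, had 8.85, 8.86 and 8.62 on the resistant arrays and 7.92, 8.41 and 7.89 on the parental arrays (log2 difference 0.70, SE 0.15, adjusted p = 0.00612). VHL, the ubiquitin ligase subunit that takes HIF-1 alpha to destruction, had 8.81, 8.80 and 8.76 on the resistant arrays and 9.43, 9.48 and 9.53 on the parental arrays. It was 1.61-fold lower (log2 difference -0.69, SE 0.07, adjusted p = 2.09e-04). EPAS1, which encodes HIF-2 alpha, gave a log2 difference of 0.28 (adjusted p = 0.0163) and passed the threshold, but not under median scaling (0.09, adjusted p = 0.437) nor without parental replicate 1 (0.27) or parental replicate 3 (0.28). ARNT2, a partner subunit, rose by 0.92 (SE 0.10, adjusted p = 1.87e-04), and the coactivator EP300 rose by 0.73 (SE 0.10, adjusted p = 8.94e-04), or by 0.39 without background correction. ARNT, the common partner, was not detected on all arrays of either group and was not tested. HIF-1 alpha is regulated mainly at the protein level, which arrays do not measure.

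In a wider list of hypoxia targets, 16 of 44 tested genes were higher (36.4%) and 10 lower (22.7%), against 22.4% and 23.0% of all genes, with a median log2 difference of 0.09. Under median scaling 13 were higher and 11 lower, and the median was -0.07 (over all genes 1466, 3774 and -0.15). Relative to all genes the list median was then 0.08, against 0.09 with quantile normalisation. The 4 largest changes among them went both ways. ERRFI1, a feedback inhibitor of the EGF receptor, fell by 1.49 (SE 0.10, adjusted p = 2.45e-05), and DDIT4, an inhibitor of mTORC1, fell by 1.39 (SE 0.10, adjusted p = 2.41e-05). TRAPPC6A, a vesicle tethering subunit, rose by 1.25 (SE 0.10, adjusted p = 5.69e-05; 0.78 without background correction), and PDGFB, a platelet-derived growth factor chain, rose by 1.22 (SE 0.14, adjusted p = 2.52e-04; 0.70 without background correction). DDIT4 is also known to respond to amino acid stress.

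Of 20 tested other enzymes of glucose and pyruvate metabolism, 1 was higher (5%) and 7 lower (35%), against 22.4% and 23.0% of all genes, with a median log2 difference of -0.13. Under median scaling 1 was higher and 11 lower, and the median was -0.32 (over all genes 1466, 3774 and -0.15). Set against all genes, the list median was then -0.16, and -0.13 with quantile normalisation. BPGM, which makes 2,3-bisphosphoglycerate, had 6.74, 6.83 and 6.71 on the resistant arrays and 5.23, 5.62 and 5.16 on the parental arrays. It rose by 1.42 (SE 0.13, adjusted p = 8.76e-05), or by 0.57 without background correction. PCK2, the mitochondrial enzyme that makes phosphoenolpyruvate from oxaloacetate, fell by 0.96 (SE 0.08, adjusted p = 5.47e-05). HKDC1, a hexokinase relative on chromosome 10, fell by 0.63 (SE 0.10, adjusted p = 0.00128), or by 0.20 without background correction, and DLAT, a core subunit of pyruvate dehydrogenase, fell by 0.55 (SE 0.08, adjusted p = 7.29e-04). The other called members, PDK3, PGM2, PGAM4 and PDHB, had log2 differences from -0.43 to -0.32, and PGAM4 is a near-copy of PGAM1, so its probe may report both.

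Carriers and side branches were measured as well. Of 9 other glucose and monocarboxylate carriers and associated genes, 4 were higher (44.4%) and 1 lower (11.1%), against 22.4% and 23.0% of all genes. Their median log2 difference was 0.25. Under median scaling 3 were higher and 3 lower, with a median of 0.04 (over all genes 1466, 3774 and -0.15). Their median relative to all genes was then 0.20, against 0.26 with quantile normalisation. TXNIP, which restrains glucose uptake and is induced by glucose, had 9.79, 9.84 and 9.89 on the resistant arrays and 8.18, 8.39 and 8.41 on the parental arrays, and rose by 1.51 (SE 0.09, 2.85-fold, adjusted p = 9.96e-06). SLC2A10 (GLUT10) rose by 1.43 (SE 0.10, adjusted p = 2.52e-05), or by 0.65 without background correction, while the monocarboxylate carrier SLC16A5 rose by 0.49, or by 0.31 under median scaling. SLC16A9, a relative of SLC16A5, fell by 0.92, or by 0.59 without background correction. Of 16 pentose phosphate and glycogen enzymes 5 were higher (31.2%) and 2 lower (12.5%), against 22.4% and 23.0% of all genes. Their median log2 difference was 0.07. Under median scaling 2 were higher and 3 lower, with a median of -0.08. Relative to all genes that median was 0.07, against 0.08 with quantile normalisation. PHKB, a phosphorylase kinase subunit, rose by 0.83, PYGL, the liver glycogen phosphorylase, rose by 0.53 (0.34 under median scaling), RPIA, the ribose 5-phosphate isomerase, fell by 0.46, and PGLS, the lactonase of the pentose phosphate pathway, rose by 0.41, a call that was lost under median scaling (0.21, adjusted p = 0.167).

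**Figure D4:**
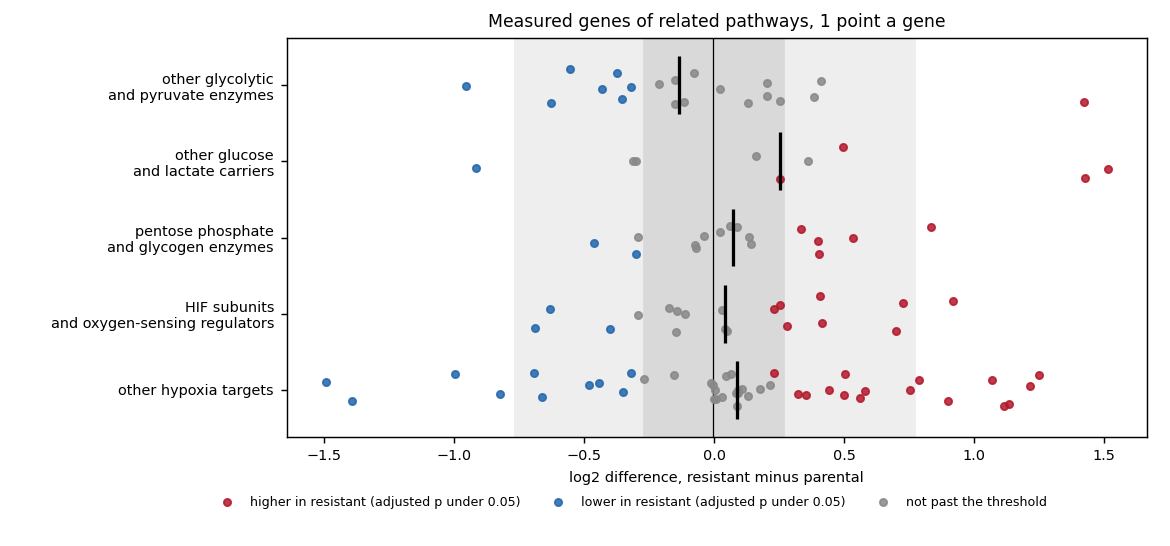
Log2 difference, resistant minus parental (horizontal axis), of each tested gene (points) in 5 lists related to glycolysis and hypoxia, with list medians as black bars. The grey bands run from percentile 25 to 75 (-0.27 to 0.27) and from percentile 5 to 95 (-0.77 to 0.77) of all tested genes, and the points outside the wider band, such as TXNIP at 1.51 and ERRFI1 at -1.49, lie on both sides.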

How the data were processed

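Probe intensities of 6 Illumina arrays, 3 from resistant and 3 from parental Ju77 cells, were deposited without normalisation, with a detection p-value per probe, per the file headers. In 3269 rows of the deposited table the detection column exceeded 1. There the columns were exchanged and the intensity restored as the exponential of that column, a natural log (rank correlation with the other deposited values 1, against at most 0.906 for base 2). The authors also deposited log2 values with medians of 6.98 to 6.99, used as an alternative. Probe names came from the platform annotation, updated through RefSeq (GRCh38.p14). Probe coordinates are not given in the sources used here.

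Intensities were background-corrected by normexp with parameters from the detection p-values (offset 16) and quantile normalised. A probe was kept if its detection p was under 0.05 on all 3 resistant or all 3 parental arrays, and the brightest kept probe stood for its gene. Groups were compared with limma 3.58.1 in R 4.3.3, with Benjamini-Hochberg adjustment over 10672 genes or 17843 probes. "At least" folds set the bright group's mean against the dim group's, where each dim array counts at its lowest detected signal or its own value, whichever is higher. Isozyme ratios were tested by exact permutation. The members, lists and alternatives were chosen with earlier results of these data known. Values in full were given for called members and pair members, and up to 4 genes per related list by size of change, plus HIF1A, EPAS1, ARNT and VHL. The fit was tested on simulated data with known changes. It called 29 of 66 genes changed 1.5-fold in the right direction, 56 of 67 changed 2-fold and 62 of 66 changed 4-fold. Of 11234 unchanged genes 23 were called. Many changes of about 1.5-fold or less can therefore be missed. Markers: of 14 leukocyte markers 3 were detected on all arrays of each group, of 10 endothelial markers 0 and 1 (resistant, parental), and of 10 lung epithelial markers 1 and 2.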

Additional observations from a re-analysis of the deposited data

How the results depend on the processing

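Of the 15 called members, 13 kept their call under all 18 alternatives, HK2 lost it with the mean of the kept probes, and ALDOA lost it there and under median scaling; none turned its sign. Of the 17 members not called, 7 gained a call in at least 1 alternative: GPI, PFKM, PGAM1, ENO1, SLC2A1, PFKFB3 and EGLN1. The glycolytic genes called higher were 5 without background correction, with the deposited log2 values and with an intensity trend, against 3. In all 3 of these settings PGAM1 and ENO1 gained lower calls, and without background correction 7 glycolytic genes were called lower, against 5. Those called lower were 9 under median scaling. Under median scaling 1466 genes were higher and 3774 lower, and 9 member probes were higher, against 14. The cause was not tested. Leaving out 1 array at a time gave 1942 to 2260 genes higher and 2006 to 2242 lower, 3 glycolytic genes higher and 5 to 6 lower, 5 hypoxia targets higher and 2 lower, and 11 to 14 member probes higher and 8 to 10 lower. Among members that did not pass the threshold, signs turned under median scaling (PGK1 -0.14, PFKFB4 -0.10, BNIP3L -0.10), for LDHA with cyclic loess (0.083), the deposited values (0.011) and the mean of probes (0.13), and for GAPDH with the mean of probes (-0.011). Leaving out 1 array gave log2 differences from -0.045 to 0.027 for LDHA, -0.16 to 0.0069 for TPI1, -0.080 to 0.10 for PFKFB4, -0.27 to 0.0053 for ALDOC and -0.56 to 0.10 for VEGFA, whose sign turned without parental replicate 1. Deviations from the group means correlated at -0.0746, -0.0011 and 0.0474 between same-numbered arrays, and at -0.134 to 0.123 between differently numbered arrays. With 3 arrays a group these values cannot tell whether the numbers pair the arrays. With the replicate number as a block 2258 genes were higher and 2320 lower, with 4 glycolytic genes higher and 5 lower and 5 hypoxia targets higher and 2 lower. Without background correction the log2 difference of ENO2 was -0.74, against -1.96.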
